A study of Mus musculus with 8 samples.

Results

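The 48 genes described here encode collagens, other proteins of the extracellular matrix, proteins that process and crosslink them, and surface and contractile proteins used to mark fibroblasts. They were chosen by name, and each was read from 1 probe set, the one with the highest mean log2(signal + 16) over the arrays. Of the 48 genes, 46 had a probe set assigned to 1 gene symbol, among 18194 genes with such a probe set. All 46 passed the filter on low signals, as did 12976 genes in all, so no member was lost to the filter. Fbn1 and Loxl2 are not analysed here.

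MOPC cells, a murine oropharyngeal carcinoma line, were grown as subcutaneous tumours in adult C57BL/6 mice, and total RNA of whole tumours was measured on Affymetrix mouse arrays. The host mice were wild type (WT) or lacked Tlr3, Tlr7 and Tlr9, the endosomal receptors for nucleic acids (Tlr3/7/9-/-, called KO here). Each genotype was sampled at day 4 and at day 6 after the cells were injected, which gave 4 groups (WT day 4, KO day 4, WT day 6 and KO day 6) of 2 arrays, 8 arrays in all. Every group received the same MOPC cells, so the genotype is that of the host and not of the carcinoma cells. The sources used here do not say whether the day 4 samples came from separate mice, and with 2 arrays a group the p-values measure only the spread between these samples.

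The extracellular matrix is the scaffold around cells. Fibrillar collagens are secreted as procollagens, trimmed by proteinases, bundled with small proteoglycans and crosslinked by lysyl oxidases, whereas collagens of the basement membrane form sheets under epithelium and around vessels. Fibroblasts make most of the fibrillar matrix, and in a growing carcinoma they can take on contractile proteins and platelet-derived growth factor receptors, a state known as activated or cancer-associated. In RNA of whole tumours, fewer cells of a type and less RNA per cell cannot be told apart.

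The 250 bases upstream of the annotated start of 4 of these genes are shown as examples of called genes that the table of promoters holds, Fmod and Tnc, which rose in both genotypes, and Fbln5 and Dpt, which fell in KO tumours. The sequences are from RefSeq on the build GRCm38.p6, on the strand of the gene and from 5′ to 3′. Of the 48 genes, 28 were found in the table of promoters, and of the 9 genes called between the days, 5 were (Fmod, Tnc, Fbln5, Fstl1 and Dpt), so that Col14a1, Dcn, Pdgfrb and Pdgfrl are not shown. The Fmod sequence lies at chr1:134037004-134037253 on the plus strand, that of Tnc at chr4:64047016-64047265 on the minus strand, that of Fbln5 at chr12:101819120-101819369 on the minus strand and that of Dpt at chr1:164796413-164796662 on the plus strand. Capitals mark letters that match a searched motif.
Fmod: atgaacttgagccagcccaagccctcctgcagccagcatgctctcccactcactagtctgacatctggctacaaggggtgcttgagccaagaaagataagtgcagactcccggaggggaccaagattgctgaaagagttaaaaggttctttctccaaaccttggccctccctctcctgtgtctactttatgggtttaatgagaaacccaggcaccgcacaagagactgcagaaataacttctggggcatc
Tnc: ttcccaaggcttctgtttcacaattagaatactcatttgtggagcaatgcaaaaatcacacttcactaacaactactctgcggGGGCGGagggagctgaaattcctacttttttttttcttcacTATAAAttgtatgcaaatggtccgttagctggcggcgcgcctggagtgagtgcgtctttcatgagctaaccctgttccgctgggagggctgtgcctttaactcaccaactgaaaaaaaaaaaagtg
Fbln5: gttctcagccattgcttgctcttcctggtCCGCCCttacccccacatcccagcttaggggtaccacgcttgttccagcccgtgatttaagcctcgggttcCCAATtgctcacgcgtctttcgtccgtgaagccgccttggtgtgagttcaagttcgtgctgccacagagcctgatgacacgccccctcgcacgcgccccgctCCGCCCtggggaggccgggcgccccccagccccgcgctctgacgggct
Dpt: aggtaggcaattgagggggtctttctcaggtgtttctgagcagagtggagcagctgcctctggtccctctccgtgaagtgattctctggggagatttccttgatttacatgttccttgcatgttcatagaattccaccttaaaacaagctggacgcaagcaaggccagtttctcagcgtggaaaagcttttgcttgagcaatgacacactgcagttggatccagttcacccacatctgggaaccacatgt

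Both strands were searched for the core promoter element TATAAA, the element CCAAT, the AP-1 motif TGANTCA, the GC box GGGCGG and the Smad motif CAGACA, and no matches overlapped in these sequences. Tnc held TATAAA 126 bases and GGGCGG 167 bases before its start. Fbln5 held CCAAT 150 bases before its start and the GC box on the other strand, written CCGCCC, at 221 and 48 bases. The letters of these 5 motifs were not found in the windows of Fmod and Dpt. Of 32851 promoters of the same length, 12.4% held TATAAA, 33.8% CCAAT, 6.75% TGANTCA, 32.7% GGGCGG and 17.1% CAGACA, so each of these matches is a common one.

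The signals are linear values on which the 2% trimmed mean of every array was 1000, and the array medians were 133.2 to 175.2. Spearman correlations between the 2 arrays of a group were 0.941 to 0.953 over all probe sets. The collagen and matrix genes were among the brightest on the arrays, with 26 of the 46 at or above the 95th percentile of mean signal. Col3a1, at 45414 to 68364, came close to the highest signal of any probe set on an array (58237 to 74639.3), and whether its signal was compressed there was not tested. Tlr7 read 10.8 to 80.1 in KO and 382.9 to 673.4 in WT tumours. Xist read 5579 to 7121 at day 6 and 44.6 to 142.1 at day 4, and the 3 Y-linked genes tested were called lower at day 6 in both genotypes, so day and host sex cannot be told apart. Muscle markers summed to 170788 in WT day 4 replicate 2 and 77454 in KO day 6 replicate 2, against 6213 to 34087 in the other 6 tumours, and cornified skin markers to 37054 in KO day 6 replicate 2 against 1984 to 3958 elsewhere.

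Changes are given as differences of mean log2(signal + 16), a scale on which those of dim genes are understated. Between day 4 and day 6, 3 of the matrix and fibroblast genes rose and 6 fell in at least 1 genotype. Fmod (fibromodulin), Tnc (tenascin-C) and Pdgfrb (platelet-derived growth factor receptor beta) rose in tumours of both genotypes. Col14a1 (collagen XIV), Dcn (decorin) and Pdgfrl (a receptor-like protein) fell in both. Fbln5 (fibulin-5), Dpt (dermatopontin) and Fstl1 (follistatin-like 1) fell in KO tumours, and in WT tumours their fold changes were also negative but did not pass the test. In WT tumours 6 of 46 genes were called at an adjusted p under 0.05 by limma, against 5.83% of the 12976 genes tested, with 3 higher (background 4.16%) and 3 lower (background 1.66%). In KO tumours 9 of 46 were called, against 6.23% of all genes, with 3 higher (background 3.71%) and 6 lower (background 2.52%). Both comparisons take their error from the spread within all 4 groups, so their calls are not independent, and 3 genes were called higher in both genotypes (background 1.76%) and 3 lower in both (background 0.855%). The median log2 fold change of the 46 genes was -0.26 in WT and -0.19 in KO tumours, where that of all genes tested was 0.01 and -0.00. With each array centred on its median, which moved the median of all genes to 0.19 and 0.17, the medians of the 46 were -0.07 and -0.02, and the calls were 8 higher and 4 lower in WT (12.5% and 1.24% of all genes) and 4 higher and 4 lower in KO tumours (8.72% and 1.63% of all genes). The counts also hung on single arrays, with 0 calls in KO tumours without KO day 4 replicate 1 or replicate 2, 3 without KO day 6 replicate 1 or replicate 2, and 1 (Fmod) in WT tumours without WT day 6 replicate 1.

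Without an overlap between the days, 13 of 46 genes lay lower on all 4 day 6 arrays than on all 4 day 4 arrays (background 11.6%) and 6 lay higher on all of them (background 15.7%). The 13 were Col3a1, Col14a1, Fbln5, Mfap5, Dcn, Lum, Ogn, Thbs1, Fstl1, Dpt, Pdgfra, Pdgfrl and Fap, and the 6 were Col4a2, Col18a1, Col12a1, Fmod, Tnc and Pdgfrb. With median centring, an alternative chosen after seeing the data, 8 lay lower, against 4.59% of all genes, and 9 higher, against 27.3%.

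**Figure D1:**
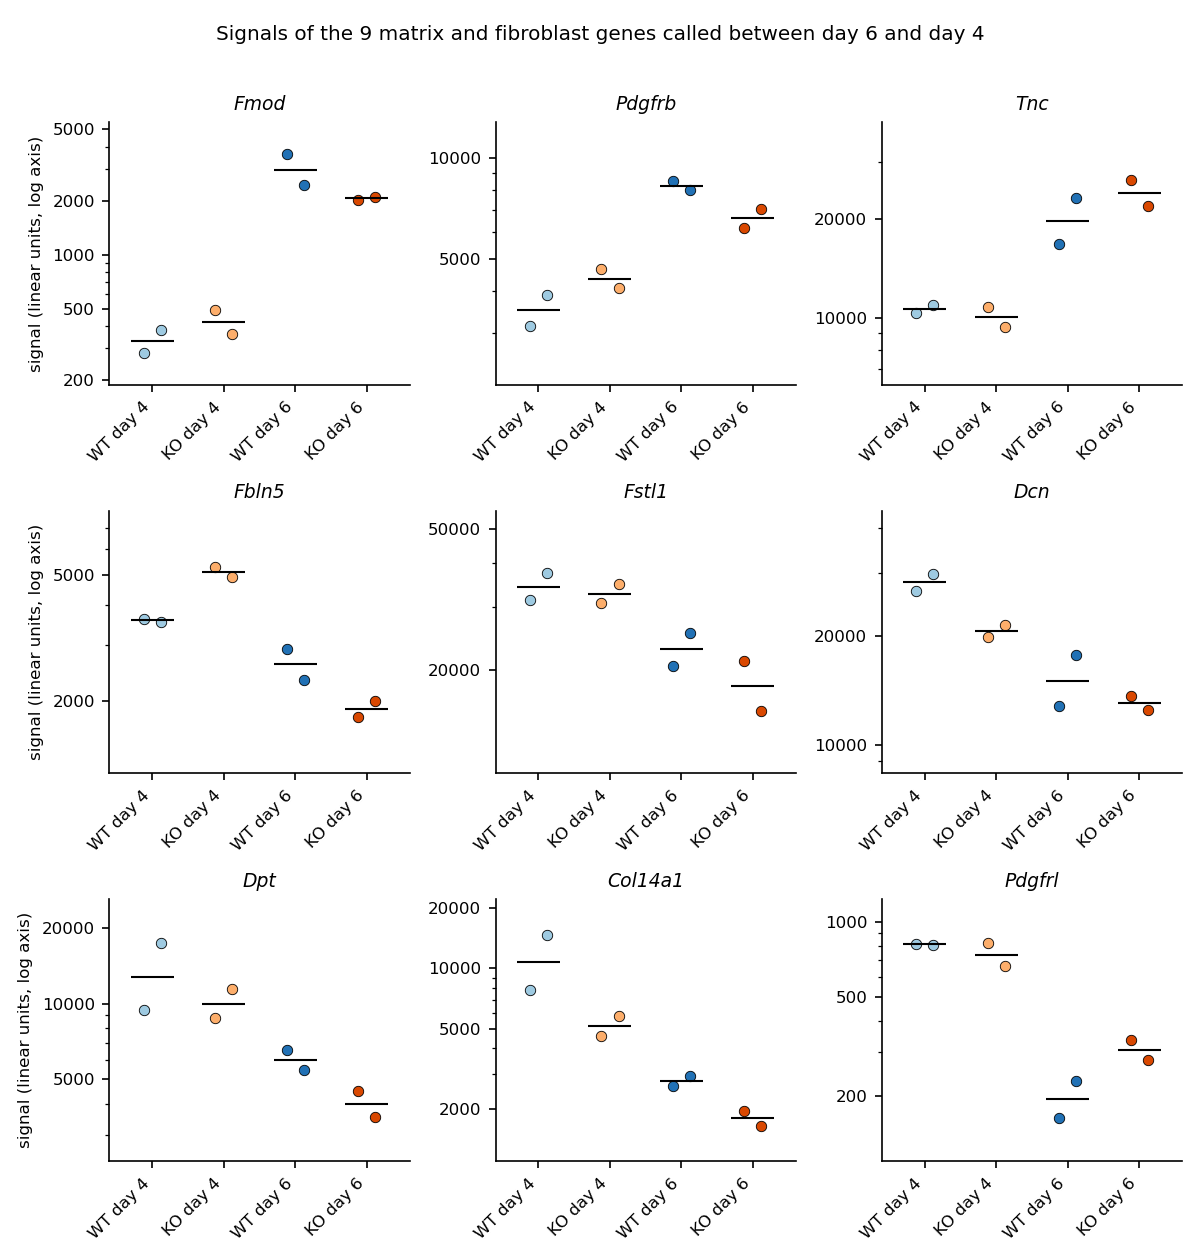
Signal (linear units on a log axis) of the 9 genes called between day 6 and day 4 in either genotype, with 1 point for each of the 8 tumours and a line at the geometric mean of the 2 tumours of a group. Fmod, Pdgfrb and Tnc were higher on all 4 day 6 arrays, Fmod at 2029 to 3648 against 283.0 to 489.4, and the other 6 were lower on all 4.

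Among the fibrillar collagens, the load-bearing fibres of connective tissue, no gene passed the test at either comparison of days. Col1a1, which encodes a chain of collagen I, read 13083 and 16113 in WT day 6 tumours, 15916 and 12594 in KO day 6, 18239 and 23380 in WT day 4, and 17786 and 14924 in KO day 4. Its WT day 6 values lay below both WT day 4 values, while in KO tumours the days overlapped. The log2 fold changes of the 5 genes (Col1a1, Col1a2, Col3a1, Col5a1 and Col5a2) ran from -0.51 to -0.20 in WT tumours and from -0.30 to 0.07 in KO tumours. All 5 values were negative in WT tumours under quantile normalization and median centring too. In KO tumours 4 of 5 were negative, and 3 of 5 under either of these alternatives. Other probe sets above the filter gave other sizes, listed for WT and then KO tumours. For Col3a1 the values were -0.80 and -0.82, with 13246 to 20754 at day 6 and 27793 to 36917 at day 4. Col1a1 had -0.72 and -0.16, and Col1a2 -0.53 and -0.36, with -1.44 and -0.08 for a dim probe set. Col5a1 had -0.42 and -0.01, and -0.08 and 0.09, and Col5a2 -0.28 and -0.38. The size of these changes therefore depended on the probe set.

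The 4 members that are collagens of the basement membrane or vessel-associated multiplexins had positive values and no call, while Col4a5, a collagen IV chain that is not a member, was called lower in WT tumours (-1.45) and had -1.18 in KO tumours (adjusted p = 0.0602 from limma). Col4a2, a chain of collagen IV, read 7296 and 5806 in WT day 6 tumours, 6335 and 6962 in KO day 6, 3969 and 4679 in WT day 4, and 5048 and 4646 in KO day 4. All 4 day 6 values were above all 4 day 4 values. Its log2 fold change was 0.59 (standard error 0.15, adjusted p = 0.0529 from limma) in WT and 0.45 (standard error 0.15, adjusted p = 0.0968) in KO tumours. Col4a1, Col15a1 and Col18a1, the last the precursor of endostatin, had log2 fold changes of 0.42, 0.51 and 0.67 in WT and 0.32, 0.21 and 0.36 in KO tumours, and all 4 genes kept a positive value under quantile normalization and median centring. With median centring, Col4a2, Col15a1 and Col18a1 were called in WT and Col4a2 in KO tumours. Endothelial markers moved with them in WT tumours: 12 of 12 had a positive log2 fold change and 4 (Cdh5, Cldn5, Egfl7 and Pecam1) were called higher (background 4.16%). In KO tumours 8 were positive and 0 were called, with 1 of 12 at an unadjusted p under 0.05 by limma, against 26.1% of all genes. The part of these cells in the collagen IV values was not tested.

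Col14a1, a collagen that sits on the surface of fibrils and ties them into bundles, had the largest fall of the collagens. It read 2612 and 2919 in WT day 6 tumours, 1962 and 1649 in KO day 6, 7775 and 14715 in WT day 4, and 4603 and 5811 in KO day 4. The 4 groups did not overlap, with WT above KO at each day and day 4 above day 6 in each genotype. Between the days the log2 fold change was -1.95 (standard error 0.27, adjusted p = 0.0169 from limma) in WT and -1.52 (standard error 0.27, adjusted p = 0.0249) in KO tumours. A second probe set above the filter gave -2.22 and -1.12. Both Col14a1 calls were lost with no trend and the methods' t-test. The WT call was also lost with the compared groups alone, and the KO call with the mean of all probe sets. Col12a1, another fibril-associated collagen, had 0.40 and 0.49 and did not pass (adjusted p = 0.151 and 0.0963). The chains of the beaded collagen VI, Col6a1, Col6a2 and Col6a3, stayed between -0.18 and 0.29.

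Among fibronectin, the fibulins and the proteins of elastic fibres, Fbln5, which helps to assemble elastic fibres, fell in KO tumours. It read 2922 and 2336 in WT day 6 tumours, 1789 and 2010.0 in KO day 6, 3632 and 3556 in WT day 4, and 5288 and 4899 in KO day 4. The KO values were the lowest at day 6 and the highest at day 4. Its log2 fold change was -1.42 (standard error 0.14, adjusted p = 0.00596 from limma) in KO and -0.46 (standard error 0.14, adjusted p = 0.0859) in WT tumours. The KO call of Fbln5 was lost with the mean of all probe sets and the methods' t-test. Fn1 (fibronectin) ran from 35724 to 48526 with overlapping days, and Fbln2 from 12546 to 18994. A second, dimmer Fn1 probe set above the filter gave -1.07 in WT and -1.15 in KO tumours. It read 669.0 to 1548 at day 6 and 1711 to 2712 at day 4, so the reading of Fn1 depends on the probe set. Fbln1 had a log2 fold change of -0.82 in WT and -0.19 in KO tumours, and Mfap5, a microfibril protein of resting fibroblasts, -0.72 and -1.13. Other Fbln1 probe sets above the filter gave -0.42 and 0.19 in WT and 0.04 and -0.32 in KO tumours, so its sign depended on the probe set. None of Fn1, Fbln2, Fbln1 and Mfap5 passed in either genotype.

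Mfap4, a microfibril-associated protein, was the dimmest member and the one with the widest spread. It read 120.5 and 245.8 in WT day 6 tumours, 18.1 and 295.5 in KO day 6, 466.5 and 473.2 in WT day 4, and 38.4 and 8.0 in KO day 4. At day 4 KO lay far below WT, while at day 6 the 2 KO arrays lay on either side of both WT arrays. Mfap4 reached the filter through its other arrays, since both KO day 4 signals and that of KO day 6 replicate 1 were below the 40th percentile of their arrays (87.4, 95.6 and 76.1), and the size of its differences is therefore not fixed. For KO against WT at day 4 the log2 fold change was -3.75 and did not pass (adjusted p = 0.466 from limma), with -4.64 to -2.64 under other settings. At day 6 it was -0.88, and without KO day 6 replicate 1 it was 0.72. Eln (elastin) read 647.7 and 738.6 in WT day 6 tumours, 416.7 and 400.2 in KO day 6, 925.9 and 1008 in WT day 4, and 570.7 and 385.7 in KO day 4. Both KO arrays were below both WT arrays at each day, with a log2 fold change over both days of -0.88 (95% interval from -1.22 to -0.54) that did not pass over all genes (adjusted p = 0.184 from limma).

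The small leucine-rich proteoglycans bind collagen fibrils and set their thickness, and they held the member with the largest rise. Fmod read 3648 and 2439 in WT day 6 tumours, 2029 and 2106 in KO day 6, 283.0 and 382.4 in WT day 4, and 489.4 and 360.2 in KO day 4. The lowest day 6 value was several times the highest day 4 value. The log2 fold change was 3.12 (8.69-fold, standard error 0.24, adjusted p = 0.00238 from limma) in WT and 2.26 (4.78-fold, standard error 0.24, adjusted p = 0.00779) in KO tumours, and the difference between them did not pass (-0.86, adjusted p = 0.995). All 6 probe sets of Fmod reached the filter and each was higher at day 6, by 1.92 to 3.12 in WT and 1.37 to 2.26 in KO tumours on the log2 scale. Fmod was the only one of the 46 genes called in WT tumours whichever array was left out.

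Dcn, which binds collagen I and growth factors, read 12775 and 17787 in WT day 6 tumours, 13688 and 12516 in KO day 6, 26814 and 29787 in WT day 4, and 19919 and 21549 in KO day 4. All day 6 values were below all day 4 values, and on the log2 scale Dcn changed by -0.91 (standard error 0.16, adjusted p = 0.0234 from limma) in WT and -0.66 (standard error 0.16, adjusted p = 0.0483) in KO tumours. The KO call was lost with quantile normalization, median centring, no filter, the mean of all probe sets, no trend, the replicate block and the methods' t-test. The WT call was lost with the mean of all probe sets, the compared groups alone, no trend and the methods' t-test. Lum (lumican) had -0.85 and -0.63 and Ogn (osteoglycin) -1.36 and -0.89, without a call, although neither overlapped between the days. Bgn (biglycan) and Prelp stayed between -0.08 and -0.02, and with median centring Bgn, Prelp and Fmod were the 3 of the 6 with a positive value in each genotype. So Fmod and Dcn, both proteoglycans of fibrils, moved in opposite directions.

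Matricellular proteins signal to cells rather than bear load. Tnc, a glycoprotein of wound and tumour stroma, read 16830 and 23294 in WT day 6 tumours, 26356 and 22052 in KO day 6, 10398 and 10985 in WT day 4, and 10817 and 9417 in KO day 4. All day 6 values were above all day 4 values, and the day 4 values lay close together. The log2 fold change was 0.89 (standard error 0.17, adjusted p = 0.0270 from limma) in WT and 1.25 (standard error 0.17, adjusted p = 0.0138) in KO tumours. A second, dim probe set above the filter gave 0.46 and 1.47. Its WT days overlapped, with 299.5 and 216.8 at day 6 and 79.3 and 391.6 at day 4. Both Tnc calls were lost with the mean of all probe sets, no trend and the methods' t-test, and the WT call also with the compared groups alone. Fstl1, a secreted glycoprotein related to Sparc, read 20539 and 25388 in WT day 6 tumours, 21125 and 15326 in KO day 6, 31407 and 37466 in WT day 4, and 30798 and 34882 in KO day 4. Its log2 fold change was -0.86 (standard error 0.18, adjusted p = 0.0352 from limma) in KO and -0.59 (standard error 0.18, adjusted p = 0.0890) in WT tumours, and the KO call was lost under the same alternatives as that of Dcn. The others did not pass in either genotype: Thbs1 and Thbs2, the thrombospondins, lay between -0.65 and -0.32, Postn (periostin) and Sparc between -0.25 and -0.10, and Sparcl1 at 0.44 in WT and -0.26 in KO tumours.

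Of the genes that process and link collagen, Dpt, which speeds fibril assembly and binds decorin, fell in KO tumours. It read 6574 and 5438 in WT day 6 tumours, 4502 and 3548 in KO day 6, 9442 and 17328 in WT day 4, and 8770 and 11401 in KO day 4. Day 6 lay below day 4 on all arrays, with the 2 WT day 4 arrays far apart. On the log2 scale the change was -1.32 (standard error 0.27, adjusted p = 0.0347 from limma) in KO and -1.10 (standard error 0.27, adjusted p = 0.0539) in WT tumours. The KO call of Dpt was lost with no trend, the replicate block and the methods' t-test. Pcolce, the enhancer of procollagen C-proteinase, was the steadiest member, at 30009 to 33209 over the 8 tumours. The lysyl oxidases Lox and Loxl1 had -0.50 and -0.34 in WT and -0.54 and -0.64 in KO tumours, without a call, and Lox ran from 7617 to 16418 within day 6 alone.

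Of the fibroblast receptors, Pdgfrb was called higher at day 6 and Pdgfra was not called. Pdgfrb, the receptor of perivascular and activated fibroblasts, read 8540.0 and 8009 in WT day 6 tumours, 6172 and 7048 in KO day 6, 3142 and 3889 in WT day 4, and 4637 and 4075 in KO day 4. The groups did not overlap, with day 6 above day 4 in each genotype and the WT arrays on the outside at each day. The log2 fold change was 1.24 (standard error 0.14, adjusted p = 0.0132 from limma) in WT and 0.60 (standard error 0.14, adjusted p = 0.0461) in KO tumours, and a second probe set gave 1.20 and 0.75. The KO call of Pdgfrb was lost with quantile normalization, no filter, the mean of all probe sets, no trend, the replicate block and the methods' t-test. Its WT call was lost with the compared groups alone, no trend and the methods' t-test. Pdgfra, the receptor of most resting connective tissue fibroblasts, read 2309 to 2932 at day 6 and 3520 to 5451 at day 4. Its log2 fold changes of -0.79 in WT (adjusted p = 0.0569 from limma) and -0.44 in KO tumours (adjusted p = 0.212) did not pass. Other Pdgfra probe sets above the filter gave -0.23 and -0.06 in WT and -0.30 and -0.26 in KO tumours. Their WT days overlapped, so the size of the Pdgfra change depended on the probe set. Pdgfrl read 163.6 and 228.7 in WT day 6 tumours, 334.8 and 279.3 in KO day 6, 813.7 and 807.7 in WT day 4, and 821.8 and 663.3 in KO day 4. It fell by 1.98 on the log2 scale in WT (adjusted p = 0.0132) and by 1.23 in KO tumours (adjusted p = 0.0258 from limma). Both Pdgfrl calls were lost with the methods' t-test, the WT call also with the compared groups alone and the KO call also with no trend.

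Fap, a surface protease of activated fibroblasts, lay with the lower genes, at 749.3 to 1539 at day 6 and 1837 to 3651 at day 4, and did not pass (log2 fold change -0.84 in WT and -1.09 in KO tumours). Pi16, a marker of adventitial fibroblasts, had -1.11 in WT and -0.13 in KO tumours, and Thy1 0.37 and 0.16. None of these 3 was called. The contractile genes Acta2 (smooth muscle actin) and Tagln (transgelin) had positive values in WT tumours, 0.42 and 1.31, and negative ones in KO tumours, -0.41 and -0.59, none past the test (adjusted p = 0.105 and 0.0640 in WT, 0.109 and 0.319 in KO tumours).

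**Figure D2:**
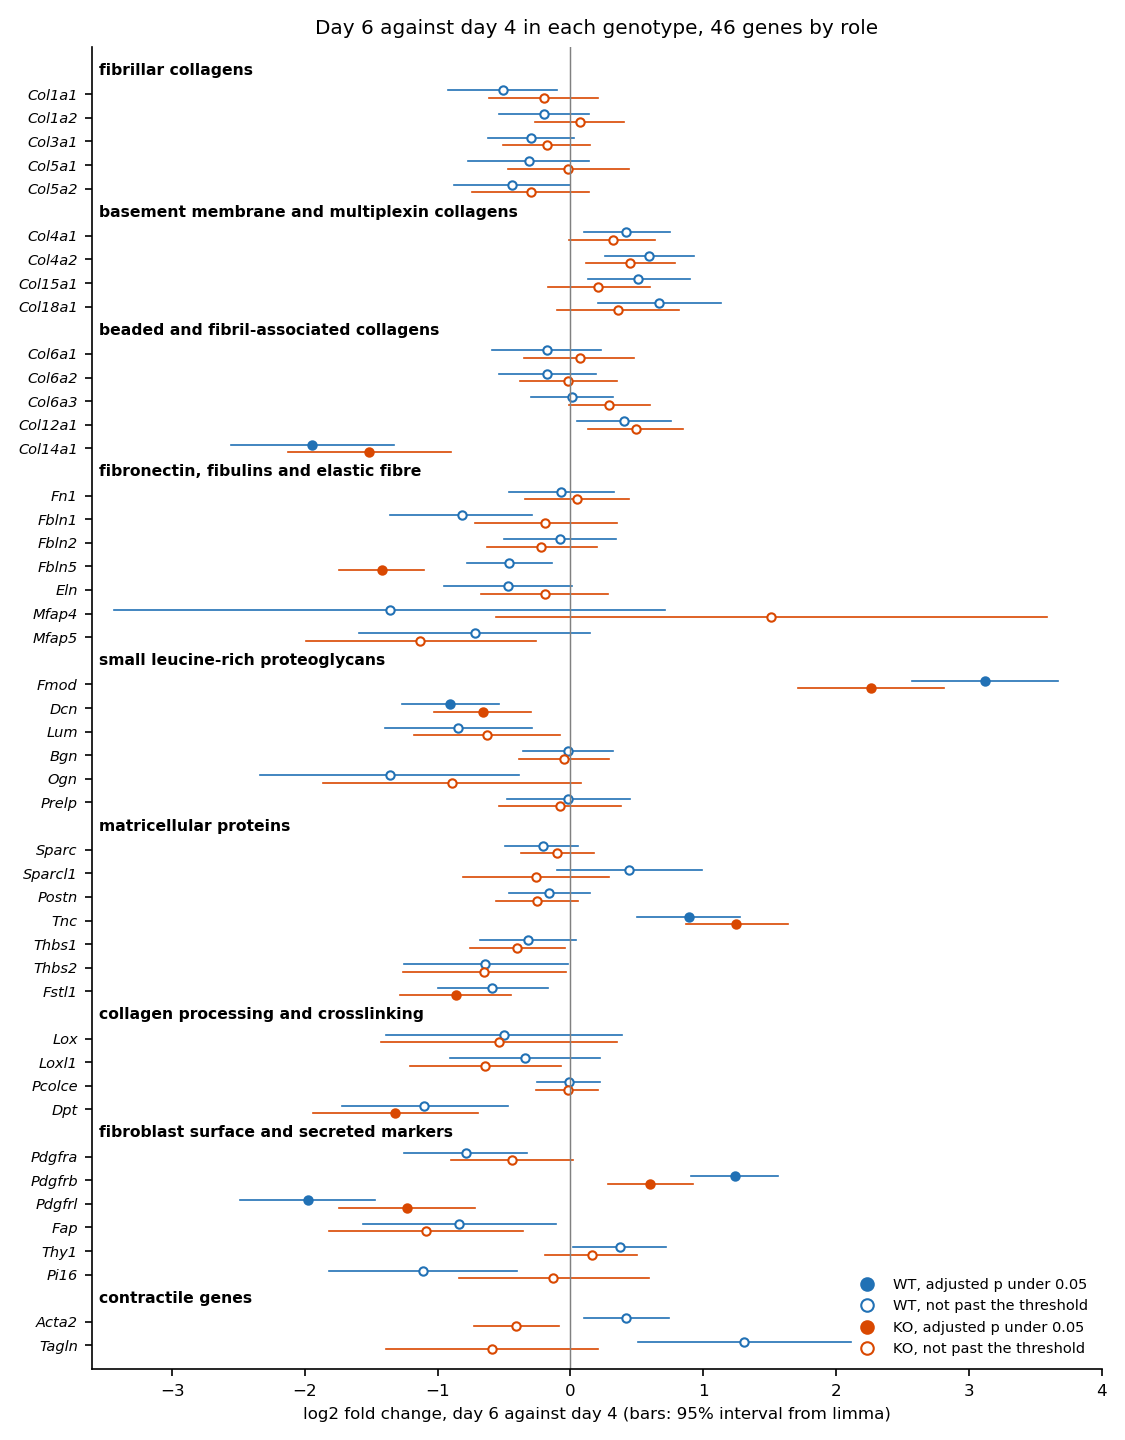
Log2 fold change of day 6 against day 4 for the 46 genes, grouped by role, in WT (blue) and KO (orange) tumours, with 95% intervals from limma as bars and filled points where the adjusted p was under 0.05. The basement membrane and multiplexin collagens lie to the right of 0 and the fibrillar collagens mostly to the left, and Fmod stands farthest right at 3.12 in WT tumours.

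KO and WT hosts were then compared at each day, which asks whether the lack of these receptors in the host went with a different matrix. None of the 46 genes was called at day 6 (background 0.0154%), at day 4 (background 0.0154%) or over both days (background 0.0308%), and by limma 6, 9 and 8 of the 46 had an unadjusted p under 0.05, against 6.35%, 7.11% and 8.69% of all genes. By the methods' t-test 1, 5 and 2 of the 46 had an unadjusted p under 0.05, against 5.86%, 6.28% and 3.73% of all genes, and 0 with Benjamini-Hochberg adjustment. The median log2 fold change of the 46 was -0.11 at day 6 and -0.07 at day 4, beside -0.01 and 0.01 for all genes, and with median centring the medians were -0.05 and 0.01. The chains of collagens I and III had intervals that reached both sides of 0: Col1a1 differed by -0.04 at day 6 (95% interval from -0.45 to 0.38), Col1a2 by 0.15 (from -0.19 to 0.48) and Col3a1 by 0.05 (from -0.28 to 0.38). Fn1 differed by 0.14 (from -0.25 to 0.54) and Postn by -0.14 (from -0.45 to 0.16).

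The largest differences between the genotypes were elsewhere. At day 6 Pdgfrl (0.62), Col12a1 (0.31) and Tnc (0.28) were the highest and Mfap4 (-0.88), Tagln (-0.84) and Eln (-0.74) the lowest of the log2 fold changes. At day 4 Tagln (1.07), Acta2 (0.64) and Fbln5 (0.50) were the highest and Mfap4 (-3.75), Pi16 (-1.30) and Col14a1 (-1.05) the lowest. Pi16 read 4763 and 3671 in WT day 4 tumours against 1531 and 1856 in KO day 4. Over both days Mfap4 (-2.31, with the same limit), Eln (-0.88) and Col14a1 (-0.83) were lowest and Col12a1 (0.27), Pdgfrl (0.24) and Acta2 (0.22) highest, and that of Acta2 turned to -0.21 when its 3 probe sets were averaged, of which 2 were below the filter. Adipocyte markers ran the same way as the lowest of these genes, with 8 of 8 tested negative at each day, where 6713 of the 12976 genes were negative at day 6 and 6269 at day 4. Of the 8, 0 were called at either day. By limma 2 at day 6 and 1 at day 4 had an unadjusted p under 0.05 (6.35% and 7.11% of all genes). Adipocyte sums were 10016 to 15704 in KO against 16305 to 39923 in WT tumours. The part of adipocytes in these differences was not tested.

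Counted without a fit, both KO arrays were below both WT arrays at each day for Col14a1 and Eln (background 4.72%), and above them at each day for Col12a1 (background 3.77%). Col12a1 read 12776 and 9411 in KO against 9080 and 8575 in WT day 6 tumours, and 8436 and 7232 in KO against 6430 and 6903 in WT day 4 tumours. For 4 genes, Fbln5, Pdgfrb, Acta2 and Tagln, both KO arrays were below both WT arrays at day 6 and above them at day 4 (background 2.75%), and for 0 genes the reverse held (background 1.9%). Acta2 read 13092 and 11848 in WT against 11523 and 10241 in KO day 6 tumours, and 10277 and 8387 in WT against 15548 and 13486 in KO day 4 tumours. Tagln read 3347 and 2353 in WT against 1667 and 1457 in KO day 6 tumours, and 1636 and 763.8 in WT against 2931 and 1897 in KO day 4 tumours. In the test of whether the KO effect differed between day 6 and day 4, 0 of the 46 genes were called (background 0%), with 6 at an unadjusted p under 0.05 and 568 of all 12976 genes (4.38%). There the highest were Mfap4 (2.87), Pi16 (0.99) and Pdgfrl (0.75) and the lowest Tagln (-1.91), Fbln5 (-0.96) and Fmod (-0.86).

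**Figure D3:**
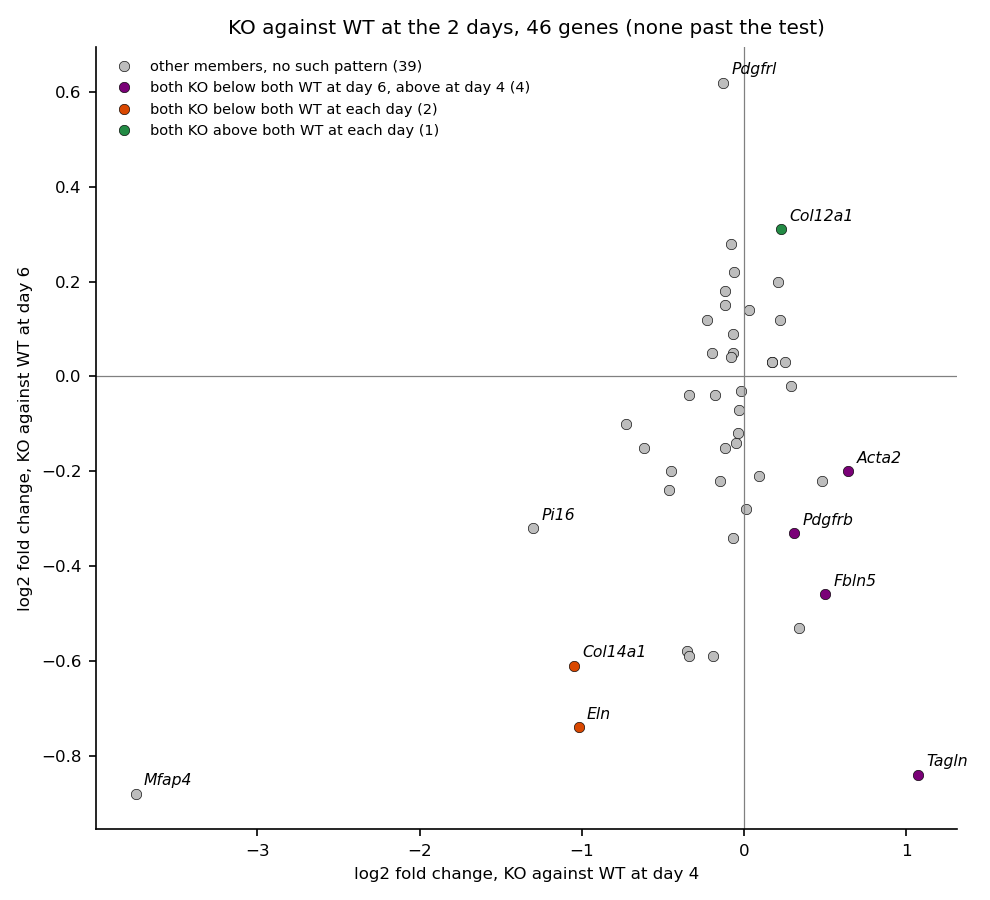
Log2 fold change of KO against WT at day 4 (horizontal axis) and at day 6 (vertical axis) for the 46 genes, with the 4 genes whose KO arrays lay below WT at day 6 and above at day 4 in purple, the 2 below at each day in orange and the 1 above at each day in green. Most genes lie near 0 on both axes, and Mfap4, dim in the KO tumours other than KO day 6 replicate 2, stands apart at -3.75 and -0.88.

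Pericyte and smooth muscle markers were set beside the contractile genes, since mural cells of vessels make both. Their sums were 12424 and 13828 in KO day 6 tumours and 13875 to 19873 in the other 6 tumours. The gap was narrow, with 13828 in KO day 6 replicate 2 and 13875 in WT day 6 replicate 2. That KO tumour also had raised muscle markers, and their part in the sums was not tested. For KO against WT at day 6, 11 of the 13 tested were negative and 0 were called by limma, with 4 at an unadjusted p under 0.05 (6.35% of all genes). Between the days 2 were called, Myl9 (-0.88) and Higd1b (-1.64), both lower at day 6 in KO tumours (background 2.52%). Endothelial sums were 10571 and 13203 in WT day 4 and 15276 and 17962 in KO day 4 tumours. For KO against WT, 12 of 12 markers were positive at day 4 and 10 of 12 negative at day 6. In these 2 comparisons 0 were called, with 5 and 2 at an unadjusted p under 0.05 by limma (7.11% and 6.35% of all genes). Sums of the leukocyte and macrophage list, which holds mostly myeloid genes, were lower in KO tumours at each day, 135768 to 163362 against 178743 to 211032 in WT. Of its 13 genes tested, 0 were called at either day. At an unadjusted p under 0.05 by limma were 6 at day 6 and 11 at day 4 (6.35% and 7.11% of all genes). The part of these cells in the values of Acta2, Tagln and Pdgfrb was not tested.

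Fibroblast markers that are not members of the group showed which of the day changes extended beyond it. Of the 14 tested, 4 fell in WT tumours (background 1.66%), namely Dpp4 and Clec3b, which mark resting fascial fibroblasts, and the proteases Adamts5 and Htra3. In WT tumours 1 rose, Gas1 (1.25, background 4.16%). In KO tumours 2 fell, Dpp4 and Htra3 (background 2.52%), and 0 rose (background 3.71%). Dpp4 read 302.6 to 381.1 at day 6 and 1376 to 2686 at day 4, with log2 fold changes of -2.52 (adjusted p = 0.0132) in WT and -2.51 (adjusted p = 0.0107 from limma) in KO tumours. The sum of these markers was 71120 to 93113 at day 6 and 97566 to 110520 at day 4. Among the carcinoma markers, the simple epithelial keratin Krt8 read 21917 to 35100 in every tumour, whereas Krt5, the keratin of basal squamous epithelium, read 62.1 to 193.4 in 7 tumours and 6009 in KO day 6 replicate 2. Between the days Cdh1 rose in WT (2.65) and KO tumours (2.50), Krt8 rose in KO tumours (0.55) and Krt19 fell in WT tumours (-1.06). The sum of the carcinoma markers was 80255 to 97264 in 7 tumours and 133504 in KO day 6 replicate 2. That tumour also had cornified skin markers of 37054 against 1984 to 3958 elsewhere, and the part of skin in its sum was not tested.

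**Figure D4:**
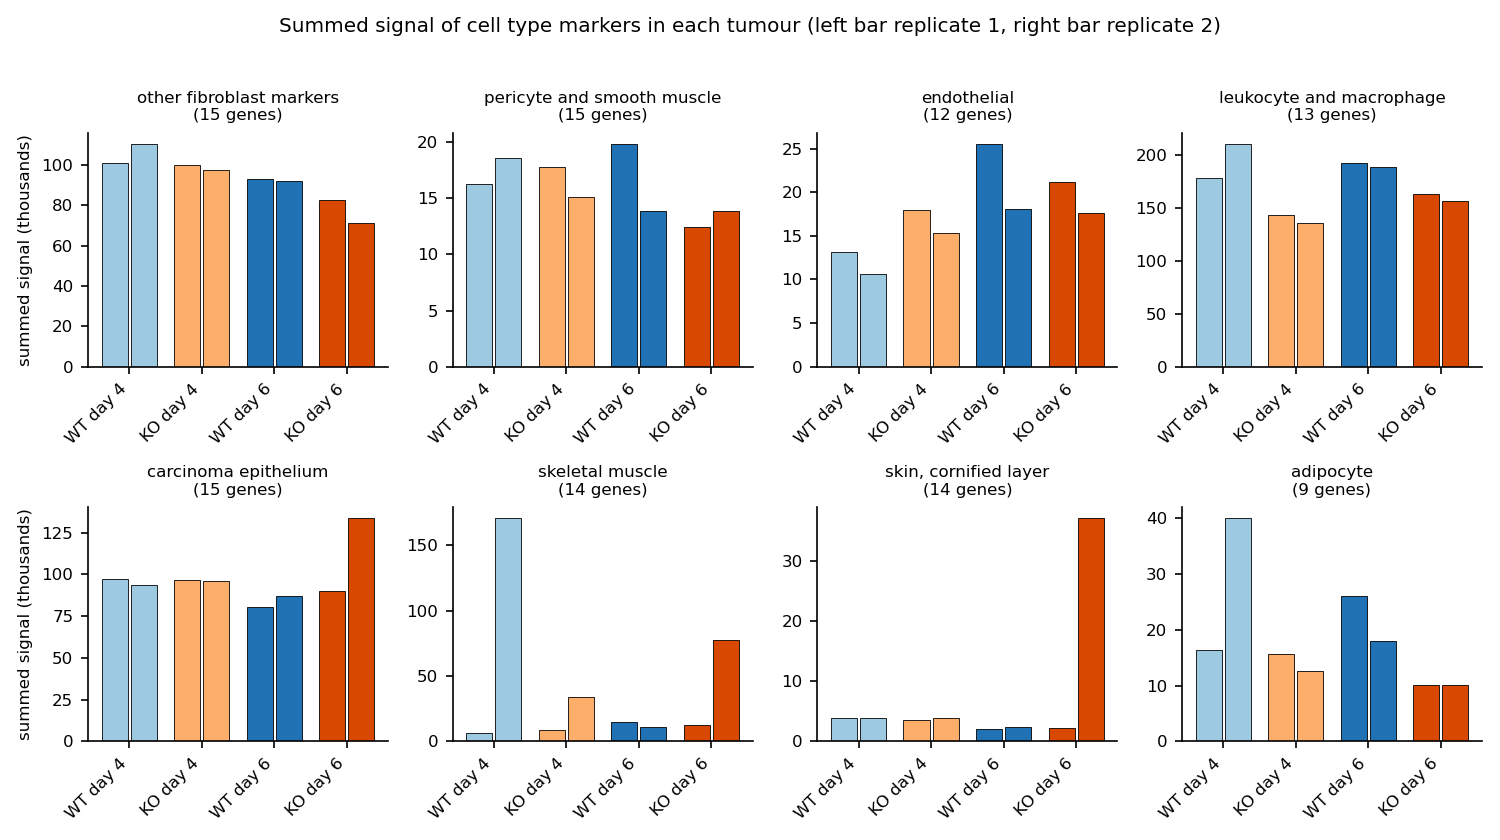
Summed signal (linear units, divided by 1000) of 8 lists of cell type markers in each of the 8 tumours, with the left bar of a pair for replicate 1 and the right bar for replicate 2. Muscle markers stand out in WT day 4 replicate 2 and KO day 6 replicate 2, cornified skin markers in KO day 6 replicate 2, and endothelial markers were lowest in the WT day 4 tumours.

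Extreme values of the matrix genes were spread unevenly over the tumours. WT day 4 replicate 2 had the highest of the 8 values for 21 of the 46 genes, among them Ogn at 10569 against 3828 in the other WT day 4 tumour, and KO day 6 replicate 2 had the lowest for 13. WT day 6 replicate 1, whose muscle and skin sums were not raised, had the lowest for 12 and the highest for 7. Without WT day 4 replicate 2, 7 genes were called between the days in WT tumours, and without KO day 6 replicate 2, 3 were called in KO tumours (Fmod, Tnc and Fbln5). The counts of genes that did not overlap between the days were 14 lower and 7 higher without both, against 18.1% and 21.3% of all genes, an alternative chosen after seeing the data.

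The wider pathway was read from lists of related genes. Over all genes tested, 4.16% were called higher and 1.66% lower at day 6 in WT tumours, and 3.71% and 2.52% in KO tumours. Whether the counts of these lists differ from those shares was not tested. Of 17 ligands, receptors and regulators of transforming growth factor beta (TGF-beta), which drives matrix synthesis, 2 rose in WT tumours, Grem1 (gremlin, an antagonist of bone morphogenetic proteins) and Tgfb3, and 1 rose in KO tumours, again Grem1. Grem1 read 4124 to 7684 at day 6 and 1127 to 2235 at day 4, with log2 fold changes of 1.57 (adjusted p = 0.0229) in WT and 1.42 (adjusted p = 0.0290 from limma) in KO tumours. Of 14 TGF-beta target genes tested, 0 were called in WT tumours, with 6 at an unadjusted p under 0.05 by limma, against 25.6% of all genes. In KO tumours 2 fell, Ccn1 (-0.90) and Ccn2 (-1.23), secreted matricellular proteins, and 1 rose, Tgfbi (0.67). Ccn2 read 19748 and 17224 in KO day 4 tumours and 7348 to 11140 in the other 6, so that its KO day 4 values were the highest, as those of Fbln5 and Acta2 were. The KO day 4 values of Tagln were above those of WT day 4 and KO day 6 but not above those of WT day 6. Of 8 ligands of platelet-derived and fibroblast growth factor receptors, 1 fell in KO tumours, Pdgfc (-0.80), and 0 were called in WT tumours. In WT tumours 3 of the 8 had an unadjusted p under 0.05 by limma, against 25.6% of all genes.

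The next lists stand beside the same shares of all genes, 4.16% higher and 1.66% lower in WT and 3.71% and 2.52% in KO tumours. Of 23 genes for collagen biosynthesis, 1 fell in WT tumours, P4ha1 (-1.38), a prolyl hydroxylase subunit, and 1 rose in KO tumours, Pcolce2 (1.18), a relative of Pcolce. Among 10 collagens that are not members, 1 fell in each genotype, Col4a5 (-1.45) in WT and Col11a1 (-0.79) in KO tumours. Of 35 further glycoproteins and proteoglycans, 1 rose and 2 fell in WT tumours, Nid2 (0.85), a linker of basement membranes, against Lamc1 (-0.60), a laminin chain, and Tnxb (-1.96), a tenascin of loose connective tissue. In KO tumours Aspn (-2.24), Efemp1 (-1.73) and Tnxb (-1.38) fell and Tgfbi rose. Of 14 transcription factors of fibroblasts, 2 fell in WT tumours, Osr1 (-1.91) and Twist1 (-0.65), and 4 fell in KO tumours, Osr1 (-2.14), Twist1 (-0.77), Tbx18 (-0.66) and Klf4 (-0.65). Tnxb, Osr1 and Twist1 were thus called lower in both genotypes, beside Col14a1, Dcn and Pdgfrl.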

How the data were processed

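The 8 arrays were MG-430 2.0 arrays hybridised with biotin-labelled RNA of whole tumours, prepared from 200 ng of total RNA per the labels. The authors deposited 1 linear signal intensity per probe set, made with MAS5 (per the submitters' processing notes, version not given in the sources used here) and scaled to a 2% trimmed mean of 1000 on each array. The members and gene lists were chosen with earlier results of these data known. Of 45101 probe sets, 34958 had 1 gene symbol in the platform annotation, 932 had several and 9211 had none, and only the first were used. Values were log2(signal + 16), with 1 probe set per gene, and 12976 genes with a mean at or above the 40th percentile over probe sets were fitted as 4 groups with limma 3.58.1 in R 4.3.3, with a trend on mean signal, 4 residual degrees of freedom and no replicate block. A gene was called at a Benjamini-Hochberg adjusted p under 0.05 over all 12976, and the fit was tested on simulated data. All p-values are two-sided. Named are the members called in a comparison, its 3 highest and 3 lowest members, other members by role, and the called genes of the pathway lists, at most 4 a comparison. Col4a2, Lox, Col4a5 in KO tumours, Krt8, Krt5 and the called carcinoma, endothelial and fibroblast markers were named after their values were seen. Alternatives covered normalization, the pseudocount, the filter, the probe sets, the moderation, a replicate block, each array left out and the methods' t-test. The number of arrays limits the precision.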

Additional observations from a re-analysis of the deposited data

Results flagged for a closer look

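For 4 of the 46 genes both KO arrays lay below both WT arrays at day 6 and above them at day 4 (background 2.75%). The log2 fold change of KO against WT at day 6 minus that at day 4 was -1.91 for Tagln, -0.96 for Fbln5, -0.84 for Acta2 and -0.64 for Pdgfrb. None of the 4 passed limma's test of that difference over all genes (adjusted p = 0.995 for each). All 12 endothelial markers had a negative difference as well, where 7016 of the 12976 genes tested were negative. Of the 12, 5 had an unadjusted p under 0.05 by limma, against 4.38% of all genes, and 0 were called.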

How the results depend on the processing

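Between the days, the 6 genes called in WT tumours became 12 with median centring, 1 with the compared groups alone, 2 with no trend and 0 by the methods' t-test, and 1 to 11 when 1 array was left out: 1 (Fmod) without WT day 6 replicate 1, 3 when either KO day 4 array was left out, and 11 without WT day 4 replicate 1. The 9 called in KO tumours became 3 with the mean of all probe sets, 2 with no trend, 0 by the methods' t-test, 6 with quantile normalization and 13 with the compared groups alone, and 0 to 10 when 1 array was left out: 0 when either KO day 4 array was left out, and 3 when either KO day 6 array was. A group left with 1 array is assumed to vary like the others. The replicate block gave 9 calls in WT and 5 in KO tumours (lost were Dcn, Fstl1, Dpt and Pdgfrb) and changed no call between the genotypes. What samples of one replicate number have in common is not stated, and as 3 of 6 correlations of replicate differences between groups were below 0 (range -0.12 to 0.274), the numbers were not taken to pair the samples. Over both days, 0 or 1 gene was called between the genotypes when 1 array was left out, Col14a1 without WT day 4 replicate 1. The median log2 fold change between the days in WT tumours was -0.07 with median centring and -0.36 to -0.08 when 1 array was left out, and in KO tumours -0.02 with median centring. The median difference between the KO effects ranged from -0.08 to 0.19. The 13 genes lower on all day 6 arrays became 8 with median centring, an alternative chosen after seeing the data. Of 42 values of named genes, 39 reversed under no alternative. Mfap4 for KO against WT at day 6 ran from -2.47 to 0.72 when 1 array was left out, and for day 6 against day 4 in KO tumours from -0.08 to 3.11. Acta2 over both days was -0.21 with the mean of all probe sets. At an unadjusted p under 0.05, the methods' t-test gave 6 of the 46 genes between the days in WT and 9 in KO tumours, against 10.8% and 20.2% of all genes. The causes were not tested.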
